A study of Mus musculus with 11 samples.

Results

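Cyr61, Ctgf, Amotl2, Ankrd1 and Srf are 5 genes of the YAP and serum response programmes, taken here from 37252 annotated mouse genes on chromosomes 1 to 19 and X. Each gene was followed with 5 kb on each side. The 5 genes were chosen with results of these data in view, in part because Cyr61 stood high in the NELF libraries, so the level of Cyr61 in NELF against Integrator is a description and carries no test. All 11 libraries hold HIV integration sites from mouse embryonic fibroblasts (MEF) of the C57BL/6 strain that lack LEDGF (genotype LEDGF-/-). Each culture received a plasmid for 1 protein fused to the LEDGF-IBD, the part of LEDGF that binds HIV integrase, was infected with HIV 24 h later and was grown for 3 more days. In HITseq, as this assay is called, the fused protein steers integration, so a site stands in for a place where the protein sat on chromatin. The fused proteins were NELFA, NELFB, NELFCD and NELFE of the negative elongation factor (4 libraries), SPT5 (1 library), and 6 Integrator proteins (6 libraries): INTS9 and INTS11 of the cleavage module, and INTS3, NABP1, NABP2 and INIP, which also form the SOSS complex. Every protein has 1 library, so the spread within NELF or Integrator is a spread between subunits and includes differences between them.

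The transcription coactivator YAP enters the nucleus when Hippo signalling is low and acts through the TEAD DNA-binding factors, and Cyr61 and Ctgf are its best known targets in fibroblasts. SRF is the factor that binds CArG boxes and switches on serum response genes, among them genes of the actin cytoskeleton. NELF and SPT5, a subunit of DSIF, hold RNA polymerase II in a pause shortly after the start of a gene, and Integrator binds paused polymerase and cleaves the nascent RNA.

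The libraries held from 18753 (NELFE) to 197069 (INTS9) distinct sites, 831994 in all, and 557 of them lay in the 5 windows: 211 at Cyr61, 158 at Amotl2, 86 at Ctgf, 53 at Srf and 49 at Ankrd1. No library without a fusion protein was used here, so values are set beside an even spread over the genome and beside the surrounding 100 kb. All 4 NELF libraries came from 1 flow cell that held no other protein, and SPT5 had a flow cell of its own, so the NELF family and its flow cell cannot be told apart from one another. An exact position was shared by 0.0587% to 0.607% of the smaller library in any pair. The median fibroblast marker gene (of 10) stood 5.82-fold (NELF), 3.45-fold (Integrator) and 10.3-fold (SPT5) above an even spread, against 0.525-fold, 0.417-fold and 0-fold for the median hepatocyte marker (of 6).

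The promoters of Cyr61 and Srf are shown first because they carry the motifs that give the gene set its name. Each is the 250 bases before the annotated start, read on the strand of the gene from the mm9 genome, at chr3:145312950-145313199 (minus strand) and chr17:46693112-46693361 (minus strand). Capitals mark GGAATG or its reverse complement, the core that TEAD factors bind, and CArG boxes, and matches were sought on both strands.
Cyr61: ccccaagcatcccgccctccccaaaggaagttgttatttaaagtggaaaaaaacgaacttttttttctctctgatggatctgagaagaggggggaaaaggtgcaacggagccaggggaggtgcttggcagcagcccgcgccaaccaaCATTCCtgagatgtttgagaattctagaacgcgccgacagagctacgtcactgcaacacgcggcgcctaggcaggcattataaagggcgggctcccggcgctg
Srf: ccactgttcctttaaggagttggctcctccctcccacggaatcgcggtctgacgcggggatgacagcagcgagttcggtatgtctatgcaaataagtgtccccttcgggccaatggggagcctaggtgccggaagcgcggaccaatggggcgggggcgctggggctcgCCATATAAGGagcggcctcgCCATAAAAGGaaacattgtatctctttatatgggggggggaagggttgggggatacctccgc

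The TEAD core was found once at Cyr61, 103 bases before the start, once at Amotl2, at 64 bases, and 2 times at Ankrd1, at 210 and 123 bases. Srf had no such match in this window but held 2 CArG boxes, at 82 and 62 bases, and Cyr61, Amotl2 and Ankrd1 held none. For comparison, 12.3% of the 250-base windows of 32044 starts (all genes but pseudogenes) held the TEAD core and 1.35% held a CArG box. Inside these 250 bases lay 5 sites at Cyr61 (2 of NELFA and 3 of SPT5), 3 at Amotl2 (all SPT5), and none at Ankrd1 and Srf.

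Cyr61 encodes a matricellular protein of the CCN family, a secreted protein that fibroblasts make soon after serum is added. The gene (ENSMUSG00000028195.3) lies on the minus strand of chr3:145309935-145312949 in mm9 and is 3.015 kb long. NELFA had 17 sites at Cyr61, NELFB 13, NELFCD 19 and NELFE 16, which is 56.5, 42.0, 46.0 and 85.3 sites per 100000 sites of the library. SPT5 had 43 sites, or 52.4 per 100000. Among Integrator proteins the levels were 9.64 (INTS9, 19 sites), 11.8 (INTS11, 4 sites), 13.5 (INTS3, 13 sites), 19.6 (NABP1, 37 sites), 32.9 (NABP2, 29 sites) and 4.01 per 100000 (INIP, 1 site). All 4 NELF libraries and SPT5 therefore lay above all 6 Integrator libraries, at 57.5 ± 19.6 (SD, n = 4) for NELF against 15.2 ± 10.03 (SD, n = 6) for Integrator. In the ordered series no library stood apart from the next lower one beyond its 95% exact Poisson interval, which covers counting error only; NELFB, the lowest NELF library, had an interval of 22.4 to 71.8, and NABP2, the highest Integrator library, one of 22.0 to 47.2. On the log2(sites per 100000 + 1) scale NELF minus Integrator was 2.03 (SE 0.45) in a limma fit over 1139 gene windows, and 7.9% of these windows passed an adjusted p of 0.05 in either direction (7.55% higher in NELF, with 86 windows higher and 4 lower).

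**Figure D1:**
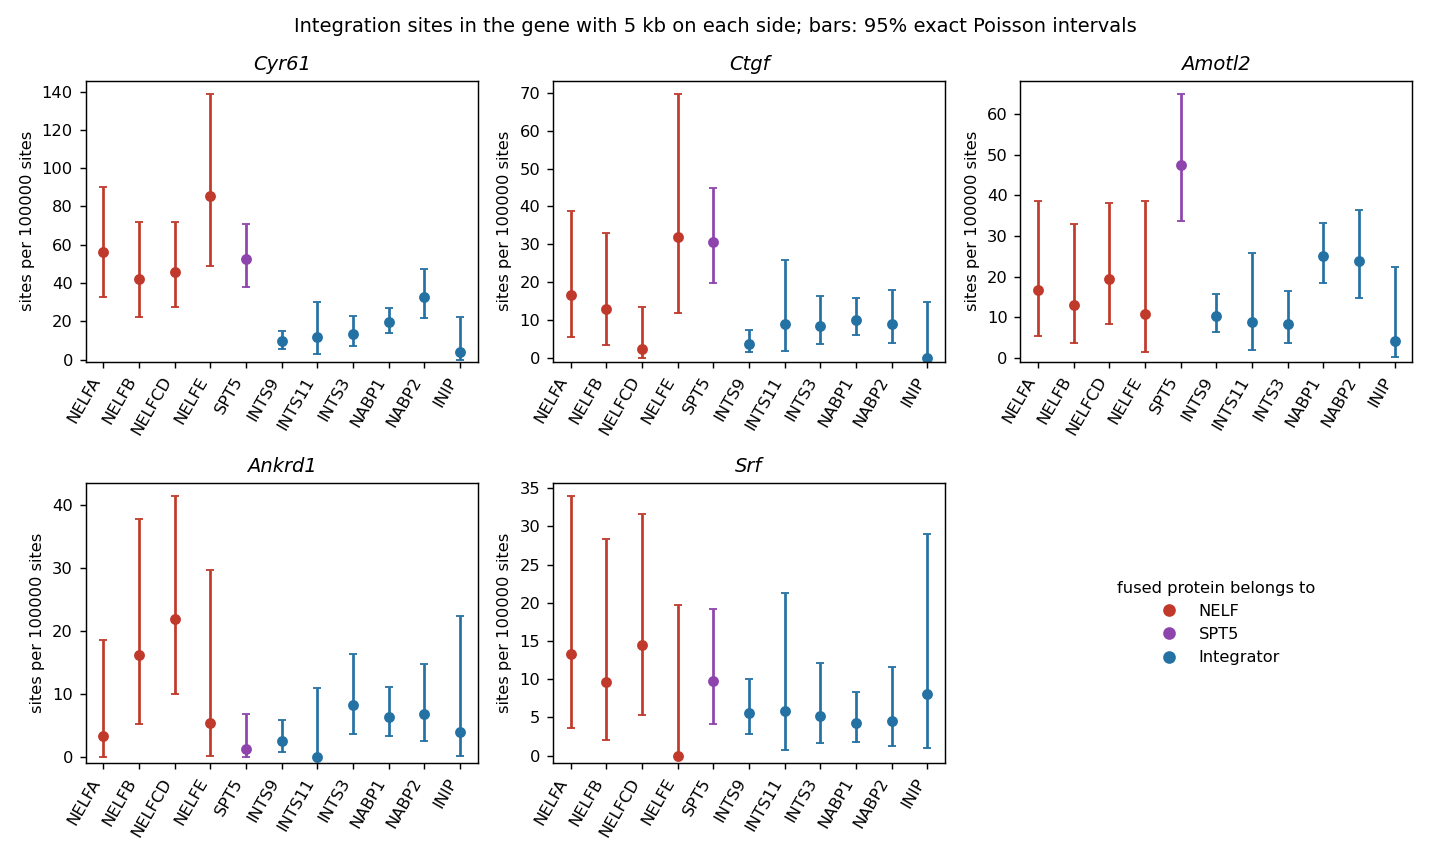
Integration sites per 100000 distinct sites of the library (y axis) in the window of each gene with 5 kb on each side, for the 11 fused proteins (x axis). Points are single libraries with 95% exact Poisson intervals and colours mark NELF, SPT5 and Integrator; at Cyr61 the 4 NELF libraries lie between 42.0 and 85.3 and the 6 Integrator libraries between 4.01 and 32.9, while at Amotl2 SPT5 (47.5) is the highest.

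Cyr61 was dense in every family relative to the genome. Its window held 113 ± 38.4 times (SD, n = 4) the sites of an even spread in NELF libraries, 103 times in SPT5 and 29.9 ± 19.7 times (SD, n = 6) in Integrator libraries. Ranked by sites per kb among 32044 genes, Cyr61 stood between 29 and 305 in 10 libraries and at 2251 in INIP, which had 1 site there. In the 100 kb on each side of the window NELF and Integrator were alike. They had 0.107 ± 0.033 (SD, n = 4) and 0.109 ± 0.034 (SD, n = 6) sites per 100000 per kb, and SPT5 had 0.073 (12 sites, 1 library). The excess over these surroundings was 41.1-fold for NELF, 55.1-fold for SPT5 and 10.7-fold for Integrator. In the window itself SPT5 was not above the NELF mean, at 4.03 against 4.41 per 100000 per kb. INTS9, NABP1 and NABP2 were each sequenced in 2 runs on different instruments. With the sites read on instruments named NCI-GA only, which read every NELF library and no SPT5 site, the 6 Integrator libraries ranged from 4.01 to 14.7 per 100000, with a mean of 11.9 ± 4.01 (SD, n = 6). NABP2 then had 2 sites and 13.04 per 100000. Its run on the other instrument had 37.0 per 100000, a value inside the interval of the 2 sites (1.58 to 47.2), so its runs were not shown to differ.

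Sites at Cyr61 also differed in place between the families. NELF sites lay mostly before the gene: 39 of 65 (60%, 95% exact interval 47.1 to 72.0%) were in the 5 kb upstream, 24 in the gene and 2 in the 5 kb past its end. NELFCD had 14 of 19 sites upstream and NELFE 6 of 16. Both NELF sites past the end were of NELFE, and NELFA, NELFB and NELFCD had none. Integrator sites lay further along, with 33 of 103 (32.0%, 23.2 to 41.9%) upstream, 48 in the gene and 22 past the end. Per library, Integrator had from 0 (INIP) to 7.94 per 100000 (NABP2) past the end. SPT5 had 24 of 43 sites upstream, 6 in the gene and 13 past the end, so it resembled NELF before the gene and had the highest level of all 11 libraries after it, at 15.8 per 100000. These shares pool the sites of several libraries, carry no test, and are part of the level by which Cyr61 was chosen. Among sites within 5 kb of any start, 42.6% of Integrator and 26.5% of NELF sites lay 1 to 5 kb downstream. At Cyr61 these shares were 45.4% and 15.6%, so the direction was that of all starts. From 5 to 1 kb upstream lay 25.5% of NELF, 22.7% of SPT5 and 31.2% of Integrator sites over all starts. At Cyr61 it was 45.3% (from 20% in NELFE to 63.2% in NELFCD), 43.9% and 21.6%.

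The median distance to the start was -561 bases for the 65 NELF sites, -131 for the 43 SPT5 sites and 808 for the 103 Integrator sites, where negative values lie upstream. The outermost NELF site upstream lay at -3705 bases, whereas SPT5 had 5 sites and Integrator 3 between 4 and 5 kb upstream. In the first kb downstream of the start NELF had 15 sites and Integrator 20. SPT5 had 0 of its 43 sites there. A limit of 3 counts, used for every count of 0 here and covering counting error only, allows a share of up to 6.98%, and the exact 95% interval is wider and reaches 8.22%. Over all 32044 starts, where neighbouring windows can overlap, the first kb downstream held 24.8% of the SPT5 sites that lay within 5 kb of a start, 26.3% of the NELF sites and 14.3% of the Integrator sites. At Cyr61 the same share was 0 of 41 for SPT5, 23.4% for NELF and 20.6% for Integrator. The empty stretch was noticed in these data and was not tested.

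**Figure D2:**
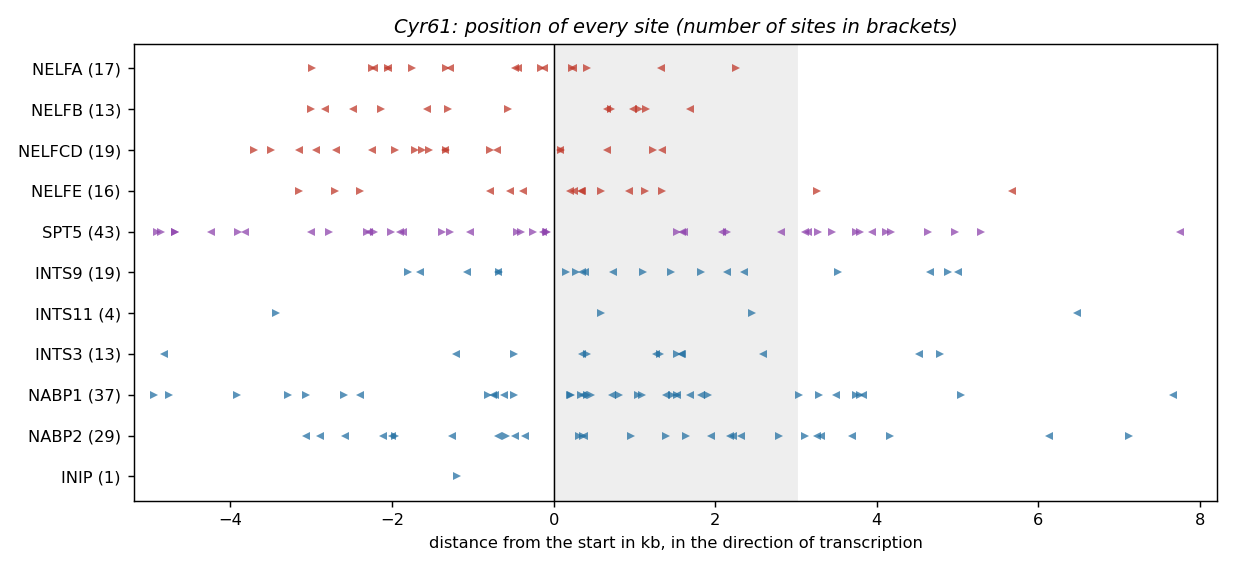
Every site at Cyr61 by library (rows, with the number of sites) and by distance from the start in kb in the direction of transcription (x axis); the grey block is the gene. Triangles pointing right are sites on the strand of the gene and those pointing left are on the other strand; SPT5 has no site in the first kb of the gene and 13 past its end, where NELFA, NELFB and NELFCD have none.

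Just outside the window, 5 to 10 kb from the gene, sites were few. NELF had 1 site there on both sides together and SPT5 1, against 20 for Integrator, of which 9 lay past the end in 4 of 6 libraries and 11 upstream in 4 of 6 libraries. The Integrator libraries hold more sites in all, and 9 sites past the end are 1.28 ± 1.71 per 100000 (SD, n = 6) against 0.606 ± 1.21 (SD, n = 4) in NELF, so the difference was smaller than the spread between libraries.

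A lincRNA gene, Gm17501, starts 327 bases from the start of Cyr61 and runs in the other direction, at chr3:145313276-145315057. Of the 211 Cyr61 sites 49 lay inside it. These were 21 of the 39 upstream sites of NELF, 20 of the 33 of Integrator and 8 of the 24 of SPT5. Part of the sites upstream of Cyr61 are therefore at the same time sites in Gm17501. Within Cyr61, coding exons held 16 NELF, 16 Integrator and 4 SPT5 sites, introns held 6, 26 and 1, and exons outside the coding sequence held 2, 6 and 1. Sites on the strand of the gene made up 33 of 65 in NELF, 53 of 103 in Integrator and 27 of 43 in SPT5.

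4 positions at Cyr61 were hit at the same base and strand in 2 libraries. They are shown because the same base was used in separate cultures, and integrase has a weak preference for certain bases around the junction. Each is read 5′ to 3′ in the direction of the site's strand, with the 5 bases after the junction in capitals, from mm9. The 1 that lies past the end of the gene was hit in SPT5 and NABP1, at chr3:145309139-145309163. The next 2 lie in the gene, hit in NELFA and INTS3 at chr3:145312518-145312542 and in INTS9 and INTS3 at chr3:145312594-145312618. The last, hit in INTS9 and NABP2, lies upstream, at -693 bases from the start and chr3:145313632-145313656.
Cyr61 past the end: gagaggtagaGACAGctgcactaat
Cyr61 gene 1: cagccgctggGGTGGtcaggctgcc
Cyr61 gene 2: ttcagtctaaCTTTCcctgcggtga
Cyr61 upstream: cttttttttgGTATGttgtacttgt

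Over the 557 sites of the 5 genes, the first base after the junction was G in 47.6% and the fifth was C in 45.6%. Over all 831994 sites these shares were 42.5% and 40.7%. The other 4 doubly hit positions were 1 at Ctgf, 1 at Ankrd1 and 2 at Srf.

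Ctgf, another secreted CCN protein and one associated with fibrosis, had a lower level and a wider spread. The gene (ENSMUSG00000019997.4, chr10:24315248-24318489, plus strand) is 3.242 kb long, and 45 of its 86 sites lay inside Gm15270, a lincRNA gene that overlaps it on the other strand. NELFA had 16.6 sites per 100000 (5 sites), NELFB 12.9 (4), NELFCD 2.42 (1) and NELFE 32.0 (6). SPT5 had 30.5 per 100000 (25 sites). Integrator libraries ranged from 0 (INIP, where 3 counts would be 12.0 per 100000 and the exact interval reaches 14.8) through a median of 8.57 to 10.1 (NABP1, 19 sites). 3 of 4 NELF libraries lay above all Integrator libraries and NELFCD lay below 5 of the 6, with means of 16.0 ± 12.2 (SD, n = 4) and 6.64 ± 3.97 (SD, n = 6). Ctgf did not pass the filter of a mean of 10 sites per library. With a filter of 1 site the log2 difference was 1.10 (SE 0.61, limma adjusted p = 0.447 over 16281 windows, of which 1.27% were called), so it was not larger than the spread between libraries.

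Within 1 kb of its start Ctgf was higher in NELF. NELFA had 13.3 sites per 100000 there (4 sites), NELFB 6.46 (2), NELFCD 2.42 (1) and NELFE 16.0 (3), and the 6 Integrator libraries had between 0 and 3.71 (NABP1, 7 sites). The means were 9.54 ± 6.21 (SD, n = 4) and 1.24 ± 1.45 (SD, n = 6), and only NELFCD fell within the Integrator range. The log2 difference was 2.23 (SE 0.68, limma adjusted p = 0.0135), in a fit over 2580 start windows of which 16.5% were called, all but 1 of them higher in NELF. Start windows as a whole were higher in NELF, with a median log2 difference of 1.02. Once each library was centred on its median window, the difference at Ctgf was 1.09 (SE 0.78, adjusted p = 0.649), so it did not stand out from other starts beyond its error. The call was also lost without NELFA (log2 difference 1.997, adjusted p = 0.0543) and with the 4 SOSS proteins alone as Integrator (1.91, adjusted p = 0.075).

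In SPT5 the sites at Ctgf lay along the gene and past it. Of 25 SPT5 sites 4 were within 1 kb of the start, 14 in the gene and 8 in the 5 kb past the end, with a median distance to the start of 2522 bases. For NELF 10 of 16 were within 1 kb of the start and 2 past the end, with a median of 306 bases, and for Integrator 11 of 45 and 6 of 45, with a median of 1520 bases. SPT5 at Ctgf was 53.9-fold above the surrounding 100 kb, whereas NELF was 19.8-fold and Integrator 8.40-fold above it. The SPT5 ratio at Cyr61 was 55.1-fold, but these ratios rest on 7 (Ctgf) and 12 (Cyr61) SPT5 sites in the surroundings. Against an even spread the SPT5 level was 58.8 times at Ctgf and 103 times at Cyr61.

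**Figure D3:**
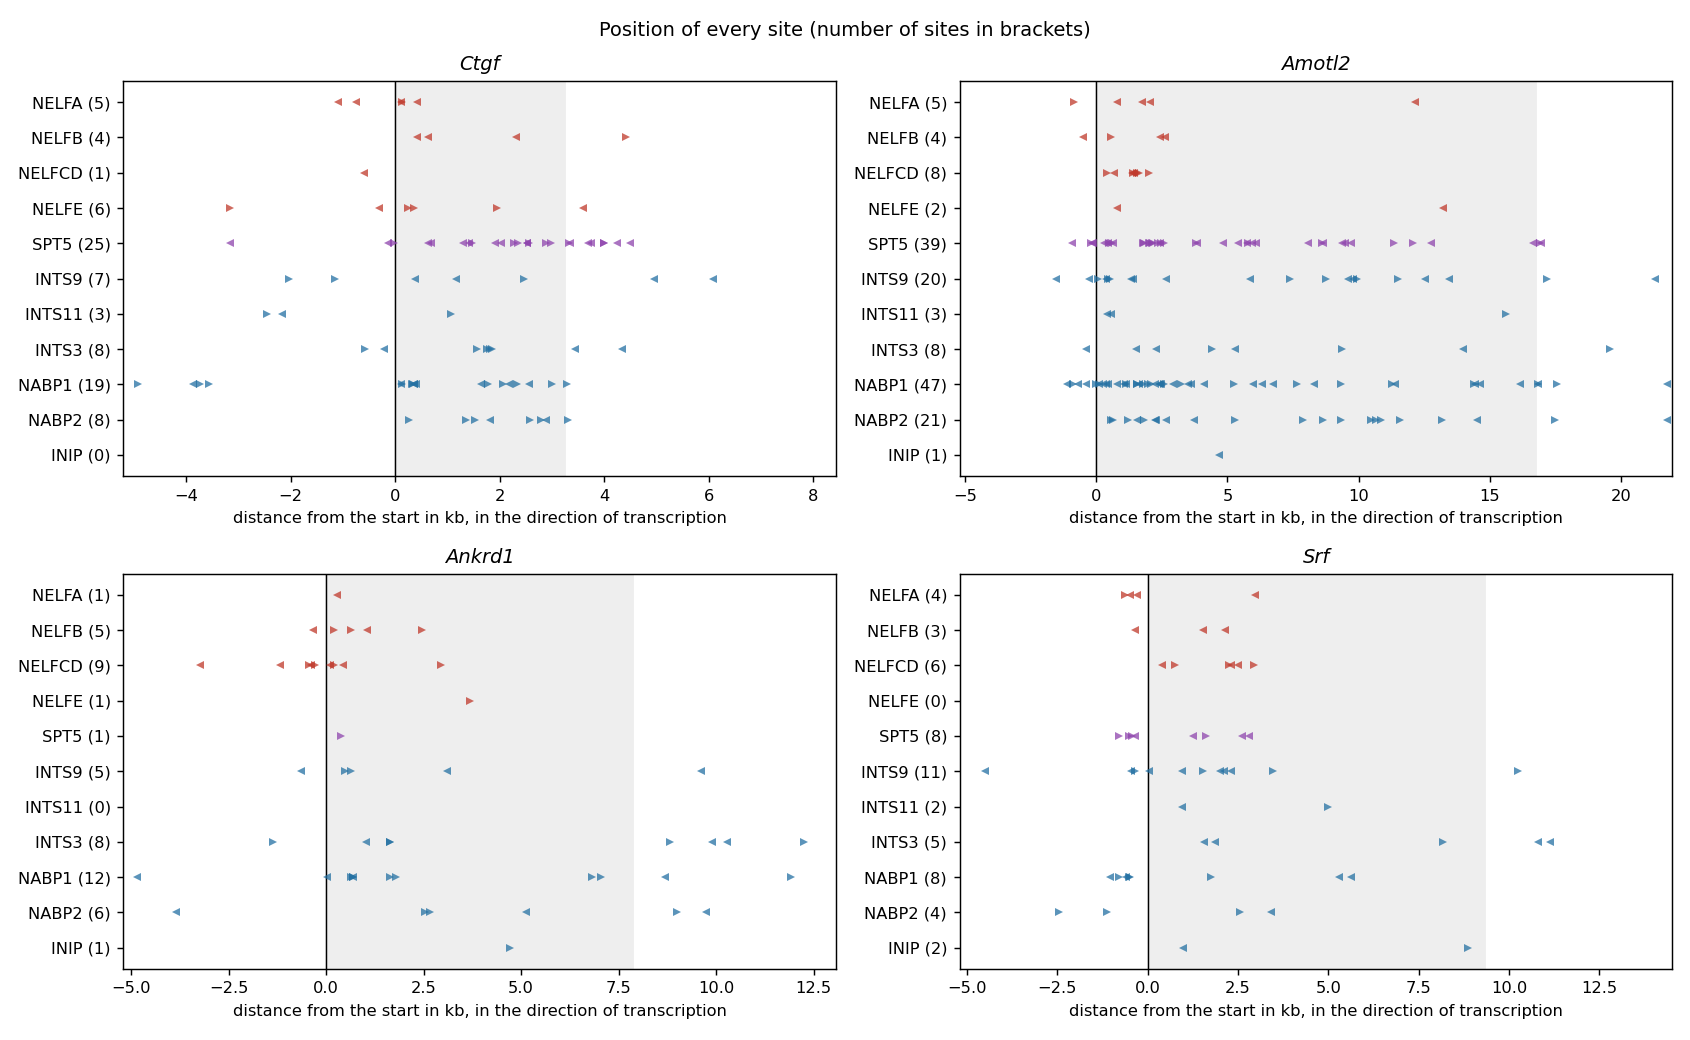
Every site at Ctgf, Amotl2, Ankrd1 and Srf, drawn as for Cyr61 with distance from the start in kb on the x axis and 1 row per library with its number of sites. No NELF site lies in the 5 kb past the end of Amotl2, Ankrd1 and Srf. Integrator libraries, which together hold more sites, have 9, 9 and 3 sites there, or means of 1.07, 1.33 and 0.43 per 100000.

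Amotl2 is an angiomotin-like protein that holds YAP outside the nucleus and is itself a YAP target. Among the 5 genes only Amotl2 had its highest level in SPT5. It lies at chr9:102619002-102635748 on the plus strand (ENSMUSG00000032531.8), is 16.747 kb long and shares its window with no other annotated gene. SPT5 had 39 sites and 47.5 per 100000. This was the only library in any of the 5 genes whose Poisson interval (33.8 to 65.0) lay apart from that of the next lower library. That library was NABP1 (24.9 per 100000, 18.3 to 33.2). The SPT5 interval still overlapped the wider ones of NELFA (up to 38.8), NELFCD (38.2), NELFE (38.5) and NABP2 (36.4). SPT5 has 1 library, so its level has no replicate check. NELFA had 16.6 per 100000 (5 sites), NELFB 12.9 (4), NELFCD 19.4 (8) and NELFE 10.7 (2). Integrator libraries ranged from 4.01 (INIP, 1 site) through a median of 9.49 to 24.9 (NABP1, 47 sites), and NABP1 and NABP2 (23.8, 21 sites) were above all NELF libraries. NELF and Integrator overlapped, at 14.9 ± 3.87 (SD, n = 4) and 13.3 ± 8.80 (SD, n = 6), and the log2 difference of 0.35 (SE 0.50, limma adjusted p = 0.717) did not exceed the spread.

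Sites of Amotl2 lay inside the gene in all families: 17 of 19 in NELF, 84 of 100 in Integrator and 33 of 39 in SPT5. Introns alone held 14, 59 and 22 of them. NELF sites were near the front, with a median distance of 1445 bases from the start against 3556 for Integrator and 3783 for SPT5. In the 5 kb past the end NELF had 0 of 19 sites (3 counts would be 15.8%, and the exact interval reaches 17.6%), and Integrator had 9 of 100. The absence held for these 5 kb only. From 5 to 10 kb past the end NELF had 2 sites (2.14 ± 2.62 per 100000, SD, n = 4) and Integrator 5 (0.535 ± 0.587, SD, n = 6). Within 1 kb of the start the levels were 5.82 ± 0.87 (SD, n = 4) for NELF, 2.84 ± 2.33 (SD, n = 6) for Integrator and 10.97 for SPT5. The log2 difference there was 1.09 (SE 0.66, limma adjusted p = 0.229) and turned to -0.044 once libraries were centred on their median start.

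Ankrd1, a muscle ankyrin repeat protein of the nucleus and sarcomere that is a strong YAP target in other cell types, was the gene with the fewest sites. It lies at chr19:36186455-36194334 on the minus strand (ENSMUSG00000024803.8) and is 7.88 kb long. NELFA had 3.32 per 100000 (1 site), NELFB 16.1 (5), NELFCD 21.8 (9) and NELFE 5.33 (1). Integrator libraries ranged from 0 (INTS11, where 3 counts would be 8.84 and the exact interval reaches 10.9) through a median of 5.19 to 8.31 (INTS3, 8 sites), and SPT5 had 1 site and 1.22 per 100000. NELFB and NELFCD were above all Integrator libraries, and NELFA and NELFE were within their range. The means were 11.7 ± 8.81 (SD, n = 4) and 4.67 ± 3.08 (SD, n = 6), with a log2 difference of 1.14 (SE 0.69, limma adjusted p = 0.498 at the filter of 1 site). SPT5 was below every NELF library here, unlike at the other 4 genes, although the Poisson interval of its 1 site reaches 6.79. Outside the window, 5 to 10 kb upstream, NELFA had 4 sites (13.3 per 100000), so its low level depends on the window. NELF had 7 sites there (5.54 ± 5.81 per 100000, SD, n = 4) and Integrator 5 (0.431 ± 0.683, SD, n = 6).

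Near the start of Ankrd1 NELF had 10 of its 16 sites within 1 kb and Integrator 8 of 32. The levels were 0 (NELFE), 3.32 (NELFA), 9.69 (NELFB) and 14.5 per 100000 (NELFCD) against 0 to 2.65 in Integrator, where 4 of 6 libraries had no site. The log2 difference was 1.84 (SE 0.75, limma adjusted p = 0.0682), which missed the threshold. It passed without NELFE (2.63, adjusted p = 0.00214), without NABP1 (2.10, adjusted p = 0.0452) and with a pseudocount of 3 (1.17, adjusted p = 0.0317), and it was 0.70 (adjusted p = 0.688) after centring on the median start. In the 5 kb past the end NELF had 0 of 16 sites (3 counts would be 18.8%, and the exact interval reaches 20.6%), and Integrator had 9 of 32, in INTS9, INTS3, NABP1 and NABP2.

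Srf, the serum response factor gene itself, did not differ between the families beyond their spread. It lies at chr17:46683788-46693111 on the minus strand (ENSMUSG00000015605.5) and is 9.324 kb long. All 53 of its sites also lay inside Gm16736, a long lincRNA gene on the other strand, and 3 Integrator sites past its end lay in Cul9. NELFA had 13.3 per 100000 (4 sites), NELFB 9.69 (3), NELFCD 14.5 (6) and NELFE 0, where 3 counts would be 16.0 and the exact interval reaches 19.7. SPT5 had 9.75 (8 sites). Integrator libraries stayed between 4.25 (NABP1) and 8.03 (INIP, 2 sites), with a median of 5.39. 3 NELF libraries lay above all Integrator libraries and NELFE below all, with means of 9.38 ± 6.58 (SD, n = 4) and 5.58 ± 1.35 (SD, n = 6). The log2 difference was 0.11 (SE 0.67, limma adjusted p = 0.971 at the filter of 1 site), and its sign turned with a pseudocount of 0.5 (-0.066), after median centring (-0.037), and without NELFA (-0.24), NELFB (-0.10) or NELFCD (-0.28). Without NELFE, the library with no site, it was 1.04 (adjusted p = 0.435).

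Within 1 kb of the Srf start lay 6 of 13 NELF, 10 of 32 Integrator and 4 of 8 SPT5 sites, and all 4 of the SPT5 sites were upstream of it. The levels were 4.51 ± 4.16 (SD, n = 4) for NELF and 1.85 ± 1.60 (SD, n = 6) for Integrator. The log2 difference was 0.76 (SE 0.72, limma adjusted p = 0.455) and turned to -0.38 after centring on the median start. NELF had 0 of 13 sites in the 5 kb past the end (3 counts would be 23.1%, and the exact interval reaches 24.7%), and Integrator 3 of 32.

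**Figure D4:**
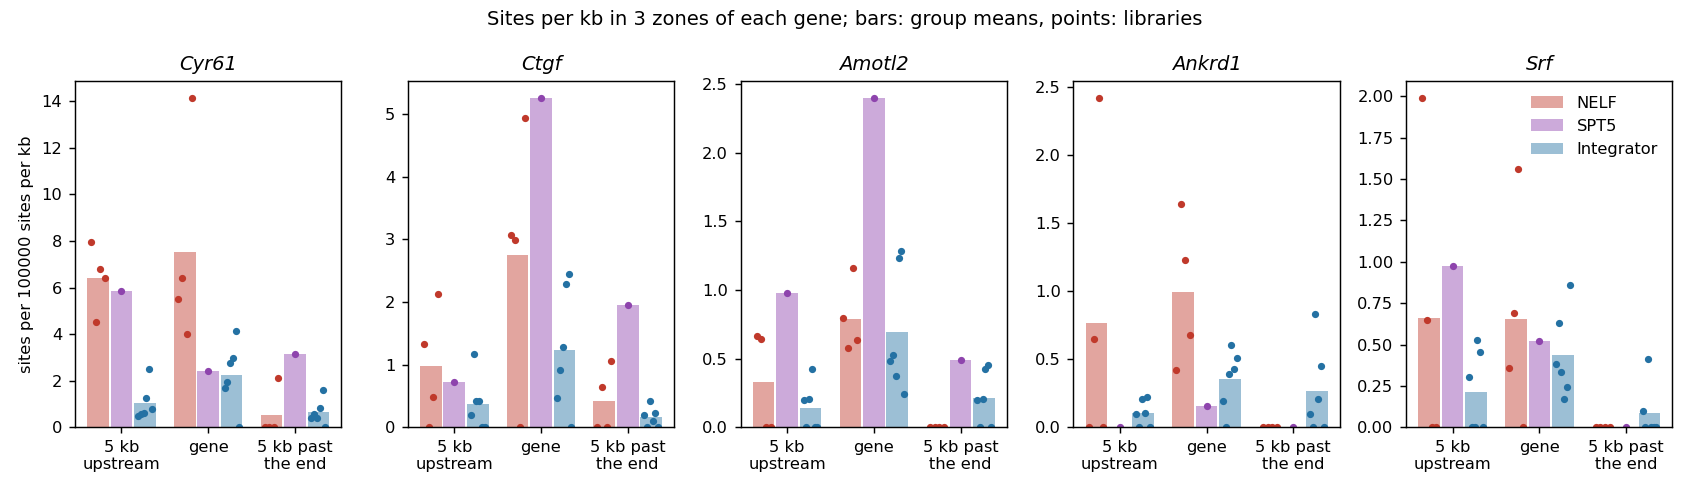
Sites per 100000 sites of the library per kb (y axis) in the 5 kb upstream, in the gene and in the 5 kb past the end (x axis) of each gene. Bars are group means (NELF n = 4, SPT5 n = 1, Integrator n = 6) and points are libraries. NELF is at 0 past the end of Amotl2, Ankrd1 and Srf. SPT5 is highest past the end of Cyr61 and Ctgf, and also of Amotl2, where it has 2 sites.

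Across the 5 genes, the NELF share within 1 kb of the start was 38.5% at Cyr61, 62.5% at Ctgf, 36.8% at Amotl2, 62.5% at Ankrd1 and 46.2% at Srf. The Integrator shares were 31.1%, 24.4%, 20%, 25% and 31.2% in the same order, lower at each gene. They rest on 13 to 65 NELF sites a gene. Over all starts, among sites within 5 kb of a start, NELF had the larger shares as well. The first kb upstream held 21.7% of NELF and 11.8% of Integrator sites, and the first kb downstream 26.3% and 14.3%. On that measure the shares at Cyr61 were 15.6% and 12.4% upstream and 23.4% and 20.6% downstream. The families thus lay closer together at Cyr61 than over all starts. Of the 4 start windows besides Cyr61, 1 was called (Ctgf), beside 16.5% of all 2580 tested, and the median of the 4 log2 differences was 1.47 beside 1.02 over all. Cyr61 was 2.34 (SE 0.68) in this fit, a description for the reason given above. After centring it was 1.21 (SE 0.89), and 0.28 (SE 0.44) over the 53 windows with a mean of at least 5 sites. Cyr61 took a larger part of the 5-gene total in NELF (44.2% to 64.0% of a library's sites in the 5 windows) than in Integrator (20% to 42.6%), and 37.1% in SPT5.

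**Figure D5:**
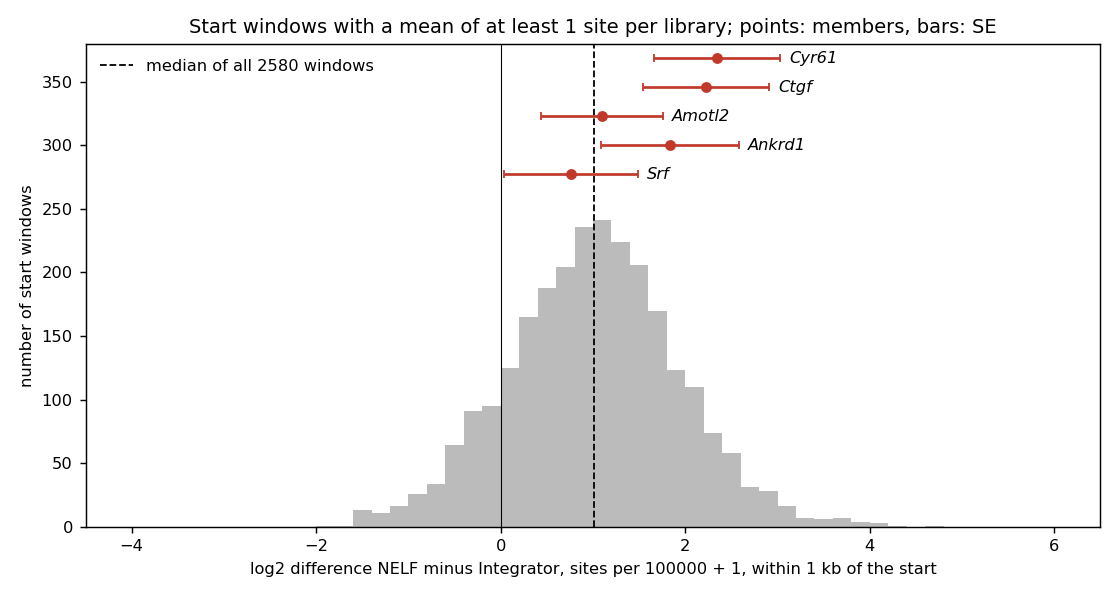
Number of start windows (y axis) by log2 difference NELF minus Integrator within 1 kb of the start (x axis, sites per 100000 + 1), over 2580 windows with a mean of at least 1 site per library. Points are the 5 genes with SE bars, drawn at arbitrary heights; the dashed line is the median of all windows (1.02), and Amotl2 (1.09) and Srf (0.76) lie near it.

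Wider lists of the same pathways put these values in place. Of 24 YAP target genes, Cyr61 among them, 20 others passed the filter of 1 site in the gene window and 0 of these were called by limma, with 2 at an unadjusted p under 0.05. Their median log2 difference was 0.33, beside -0.13 over all 16281 windows, of which 1.27% were called in either direction and 1% higher in NELF. At starts 11 were tested and 2 were called, both higher in NELF, beside 16.5% of all 2580 starts: Ctgf and Jub (2.15, limma adjusted p = 0.0141), the LIM protein also called Ajuba, which restrains the LATS kinases. After median centring 0 of the 11 were called by limma, with 0 at an unadjusted p under 0.05. The YAP target genes with most sites per 100000 besides Cyr61 were Asap1 (31.4 in NELF and 42.1 in Integrator) and Rbms3 (26.1 and 30.1), and neither differed beyond the spread (limma adjusted p = 0.685 and 0.923). Their windows are 304 kb and 1067 kb long, and they held 3.01 and 0.669 times the sites of an even spread, averaged over the libraries, against a window of 13.015 kb at Cyr61. Of 23 genes of the Hippo pathway and the TEAD factors, all were tested and 0 were called by limma, and 0 of 10 at starts, with 4 and 2 at an unadjusted p under 0.05. In that list Tead3, a DNA-binding partner of YAP, had the most sites, with 40.6 ± 11.7 (SD, n = 4) in NELF, 22.0 ± 9.55 (SD, n = 6) in Integrator and 65.8 in SPT5 (log2 difference 0.95, adjusted p = 0.236). Wwc2, a Hippo activator, had 14.9 and 28.9 (-0.98, adjusted p = 0.259), and Lats2, a kinase that marks YAP for exclusion, 18.7 and 18.5 (0.42, adjusted p = 0.762).

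Among 23 SRF target genes, which include actin cytoskeleton and immediate early genes, all passed the filter of 1 site and 4 were called higher in NELF, named here after their values were seen: Flna (1.75, limma adjusted p = 0.00121), Ier2 (1.73, adjusted p = 0.0141), Actg1 (1.56, adjusted p = 0.0226) and Actb (1.68, adjusted p = 0.0308). Over all 16281 windows 1.27% were called and 1% were higher in NELF. With the filter of 10 sites 9 genes of the list were tested and 1 was called, beside 7.9% of 1139 windows. That gene was Flna (limma adjusted p = 0.00316). Ier2, Actg1 and Actb were not called in that fit (limma adjusted p = 0.158, 0.0543 and 0.161). At starts 5 of 15 were called, all higher in NELF, beside 16.5% of all 2580, with a list median of 1.61 beside 1.02 over all. After median centring 0 of the 15 and 0 of the 2580 were called by limma, with 0 and 299 at an unadjusted p under 0.05, and the list median was 0.48. Flna, the actin crosslinker filamin A, had the most sites in the list, with 48.7 ± 10.1 (SD, n = 4) in NELF, 14.5 ± 6.34 (SD, n = 6) in Integrator and 75.6 in SPT5. Junb and Cnn2 followed, with log2 differences of 1.04 (adjusted p = 0.203) and 0.86 (adjusted p = 0.347). Of 7 genes of SRF cofactors 6 were tested and 0 were called by limma, with 0 at an unadjusted p under 0.05. Mkl1, the actin-sensing coactivator, led that list with 19.7 in NELF and 30.5 in Integrator (-0.65, adjusted p = 0.481).

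In the gene families of the 5 genes, Cyr61 and Ctgf had most of the CCN sites with Wisp1, which had 22.0 ± 13.3 (SD, n = 4) in NELF and 13.5 ± 5.98 (SD, n = 6) in Integrator (0.57, limma adjusted p = 0.646). Amotl1 and Amot, the relatives of Amotl2, were lower in NELF than in Integrator by the mean (5.92 and 4.31 against 13.1 and 7.07), and neither passed the test (adjusted p = 0.304 and 0.601). Ankrd2 and Ankrd23, the relatives of Ankrd1, had 5 and 4 sites in all 11 libraries together, and none in NELF.

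The genes whose levels over the 11 libraries were most like those of Cyr61 were Hist1h3d (Pearson r = 0.967), Hist1h2ae (0.963) and Hist1h2ad (0.961), 3 neighbouring histone genes on chromosome 13 whose windows share sites. They were chosen by this rule from 1139 genes, and all points share library and flow cell, so the values describe the likeness only. Hist1h3d had 93.4 ± 31.4 (SD, n = 4) in NELF, 10.6 ± 8.90 (SD, n = 6) in Integrator and 34.1 in SPT5. The nearest to Amotl2 were Rcc1 (0.900), Slc3a2 (0.882) and Ndufb10 (0.859), where SPT5 was also above both group means, with 46.3, 65.8 and 48.8 per 100000. Ctgf, Ankrd1 and Srf did not pass the filter for this comparison.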

How the data were processed

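The authors deposited 1 list of site positions per library. Per the submitters' processing notes the build is mm9, and no source used here gives the aligner. The deposited entries are positions, not scores or counts. Entries with the same chromosome, position and strand were counted once, and sites within a gene of the GENCODE vM1 models (37252 genes, mm9) with 5 kb on each side were divided by the distinct sites of the library and multiplied by 100000. Differences were tested with limma 3.58.1 (R 4.3.3, trend and robust) on log2(sites per 100000 + 1), 4 NELF against 6 Integrator libraries, with Benjamini-Hochberg adjustment over all windows with a mean of at least 10 sites (genes), 5 sites (starts) or, where stated, 1 site. SPT5 entered none of these fits and was added to NELF only in an alternative named below. The fit was tested on simulated data.

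The 5 genes, the gene lists and the rule for named genes (the 5 genes, genes overlapping their windows, the 3 most alike over the 11 libraries, and the 3 of each list with most sites) were chosen with earlier results of these data known. P-values measure the spread between subunit libraries, which may be technical. The base after the junction was read 1 base lower on the minus strand, since the base patterns of the 2 strands line up only then; no count depends on it. Alternatives were other pseudocounts and filters, all entries, merged positions, median centring, libraries left out, SOSS proteins alone, SPT5 added to NELF, narrower or wider windows and, chosen after seeing the data, sites of the NCI-GA instruments alone and median centring with the lower filter for the gene lists. The promoter sequence of 1 of the 5 genes is not reported here.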

Additional observations from a re-analysis of the deposited data

How the results depend on the processing

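Of 278 alternative values for 16 results, 251 were taken as unchanged. For counts of calls this meant within a fixed factor of the main count, and for shares inside the exact interval of the main share. For log2 differences it meant the same direction and the same side of the threshold. At Cyr61, which carries no test, it meant the same direction and a change smaller than the spread left by the fit. The number of windows tested changed with the setting, so each count is given beside it. Of 1139 gene windows 90 were called, and 206 of 16281 at the lower filter. With SPT5 added to NELF 156 of 1233 were called, and with 1 kb on each side 7 of 794. When a library was left out the count ranged from 71 of 1288 to 104 of 1007. Of 53 start windows 35 were called, and 426 of 2580 at the lower filter. After median centring 0 of 53 were called (limma, with 11 at an unadjusted p under 0.05), and with NCI-GA runs only 6 of 11. Without 1 library the count ranged from 17 of 25 (without NABP1) to 49 of 78 (without INIP) and 49 of 68 (without INTS11). Of 158 zones past gene ends 61 were called, 58 of them higher in NELF, and the median log2 difference over all 158 was 0.997. At the lower filter 74 of 2177 were called, with a median of 0.075. With NCI-GA runs only 34 of 76 were called. Without 1 library the count ranged from 40 (of 168, 160 and 159 without NELFA, NELFB and NELFCD) to 65 of 184 (without INIP).

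At Cyr61 the log2 difference stayed between 1.74 and 2.29 without 1 library and was 2.22 with NCI-GA runs only and the lower filter. Near its start it ranged from 1.93 to 2.59 and was 0.28 after median centring over 53 windows; past its end it ranged from -1.79 to -0.61. The shares of sites near its start ranged from 32.7% to 43.5% (NELF) and from 28.8% to 32.4% (Integrator), and were 67.7% and 58.3% within 2 kb. Without 1 library, the gene-window difference ranged from 0.59 to 1.74 at Ctgf, 0.09 to 0.55 at Amotl2, 0.70 to 1.56 at Ankrd1 and -0.28 to 1.04 at Srf. For Srf it was -0.037 after median centring and -0.066 with a pseudocount of 0.5. Near starts it ranged from 1.91 to 2.68 at Ctgf, 0.76 to 1.32 at Amotl2, 1.31 to 2.63 at Ankrd1 and 0.28 to 1.44 at Srf. After median centring it was 1.09 at Ctgf, -0.044 at Amotl2 and -0.38 at Srf, and with SOSS proteins alone 1.91 at Ctgf. At Ankrd1 it was 1.17 with a pseudocount of 3. The cause of these changes was not tested.

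Over all alternatives the adjusted p near the start ranged from 0.00482 to 0.649 at Ctgf and from 0.00214 to 0.688 at Ankrd1. Amotl2 without NABP1, Cyr61 near its start without NABP1, and Srf near its start and Cyr61 past its end with NCI-GA runs only fell under the filter and gave no value. No paired analysis was possible because the labels give no replicate numbers and each protein has 1 library. Outside Cyr61 each NELF library had 0 to 9 sites per gene, so differences within the Poisson intervals were not detectable at this depth.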
